A study of Mus musculus with 6 samples.

Results

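Amino acid transporters of the plasma membrane were followed in C2C12 cells, an immortalised mouse myoblast line, after cyclic mechanical stretch (MS). The 10 genes were chosen by symbol from the deposited table of 32815 gene rows, and all 10 were found: Slc7a11, Slc7a5, Slc3a2, Slc7a1, Slc7a3, Slc7a6, Slc38a2, Slc1a4, Slc1a5 and Slc6a9. There were 3 libraries of wild-type cells after MS and 3 libraries of wild-type control cells (Control), and all 6 carry the same batch label. For MS, the plate was bent for 8 h at a rate of 1 Hz and a displacement of 4 mm; the labels write the strain as 5333 μ without naming the unit. Whether the 3 libraries of a group stem from separate cultures is not stated, so each p-value rests on a spread among libraries that may be technical.

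Plasma membrane transporters set which amino acids a cell can take up. Many of them exchange one amino acid for another or carry it in with sodium. When amino acids run short or proteins misfold, kinases phosphorylate the initiation factor eIF2alpha, translation of the ATF4 messenger RNA goes up, and the transcription factor ATF4 turns on genes of amino acid synthesis and import. Slc7a11 is also a target of NRF2, the transcription factor of the antioxidant response, because the cystine it imports is used to make glutathione.

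Transcripts of 7 of the 9 transporters that could be tested were higher in MS cells, and 0 were lower in limma, also at an unadjusted p under 0.05. The 7 were Slc6a9, Slc3a2, Slc7a11, Slc7a5, Slc7a1, Slc1a5 and Slc1a4, and the other 2, Slc7a6 and Slc38a2, did not pass the test. Slc7a3 averaged under 1 FPKM (fragments scaled by transcript length and library total) over the 6 libraries and was not tested. Of all 12028 tested genes, 30.6% were called higher and 23.2% lower. The MS libraries lay above all Control libraries for the same 7, against 35.9% of all tested genes. For 5 of the 9 transporters the increase was at least 2-fold on the log2(FPKM + 1) scale, against 1.74% of all tested genes. The 9 tested transporters had a median log2 fold change of 1.07, and all tested genes had a median of 0.05. The group was chosen with earlier results of these data known, so its shares beside those of all genes are a description. A call is an adjusted p under 0.05 in limma, a linear model fitted over all tested genes, with Benjamini-Hochberg adjustment. Values are averages over a culture, so a change in the make-up of the cells and a change of RNA per cell cannot be told apart.

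**Figure D1:**
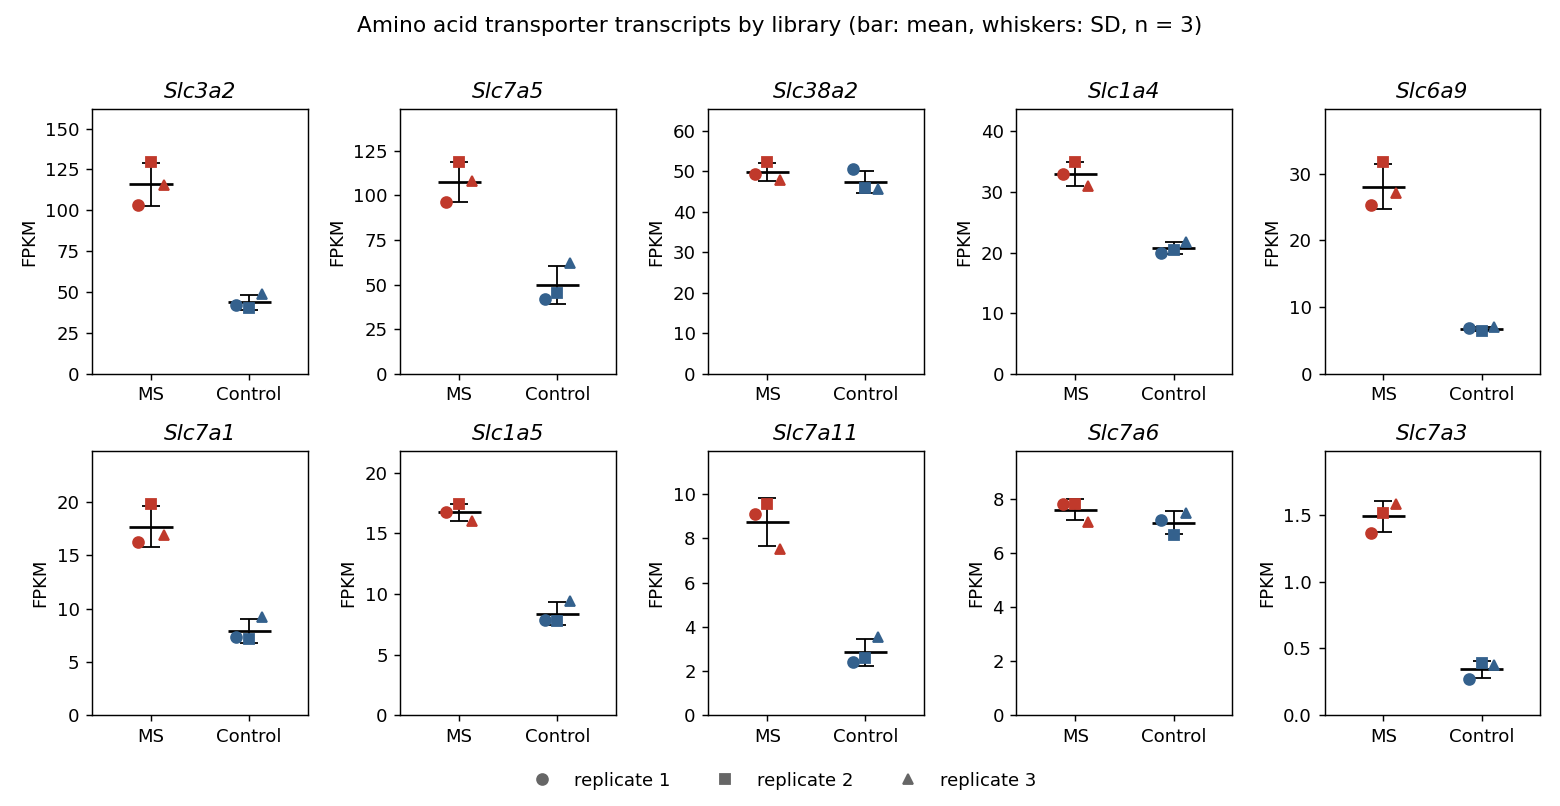
Transcript level in FPKM (vertical axis, linear from 0) of the 10 transporters in each MS library (left, red) and each Control library (right, blue), ordered by the MS mean. Horizontal bars are group means and whiskers are SD (n = 3 each); the groups overlap for Slc38a2 and Slc7a6 and for no other transporter shown.

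Markers of other tissues differed between libraries, in part in ways the groups do not explain. A list of 10 kidney markers, of which 8 reached 1 FPKM in some library, summed to 217 to 232 FPKM in the MS libraries, against 138 and 143 in Control 2 and Control 1 and 238 in Control 3. Its marker Kap was at 86.9 to 96.0 FPKM in the MS libraries and 87.0 in Control 3, against 0.155 in Control 1 and 0.302 in Control 2, where Umod and Slc22a6 were listed at 0. Tongue and salivary markers (9 of 13 matched) summed to 330 FPKM in MS 1 and 275 in Control 3, against 170 to 194 in the other 4 libraries. Much of each sum is Aqp5, at 142 to 183 FPKM in every library. Amy1 was at 78.3 FPKM in MS 1 and 65.9 in Control 3, against 0.498 to 1.07 in the other 4. Bpifa2, Dcpp1, Dcpp2 and Krt4 were listed at 0 in those 4, while Krt5 and Krt14 did not follow this split. Lens markers (13 of 14 matched) were at 324 FPKM in MS 1 and 272 in Control 3, against 962 to 1240 elsewhere. Of 5 blood and macrophage markers, 3 reached 1 FPKM in some library, and the list summed to 34.4 to 37.6 FPKM in MS and 10.2 to 12.8 in Control, without overlap. Cd68, a lysosomal protein abundant in macrophages, was at 24.8 to 29.7 FPKM in MS and 3.72 to 5.12 in Control, while Adgre1 was listed at 0 in all 6 libraries and Ptprc was at 0.0578 FPKM or less. Of 7 markers listed for the named line, 5 reached 1 FPKM in some library. Vim was at 893 to 962 FPKM in MS and 998 to 1078 in Control, and Des at 46.7 to 57.8 in MS and 51.0 to 59.8 in Control. Myod1 was at 0.823 to 1.20 in MS and 1.42 to 2.00 in Control, and Myf5 at 1.63 to 2.11 in MS and 2.32 to 2.50 in Control. Cdh15 was at 0.740 to 0.893 in MS and 1.28 to 2.02 in Control, and Myog at 0.314 or less in every library. Pax7 was at or near 0 in all 6. Control 3 was the highest Control library for 8 of the 10 transporters, and MS 2 the highest MS library for 9. The part of these differences in the transporter results was not tested. MS 1 and Control 3 carry both the kidney and the salivary transcripts, so their difference is given beside the group results. The 2 libraries are not matched in level, with Bpifa2 at 30.1 FPKM in MS 1 and 20.5 in Control 3. MS 1 was the highest MS library for 0 of the 10 transporters.

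Promoter sequences were looked up in RefSeq (build GRCm38.p6) for the letters of 2 motifs that bear on this group. TGATGNAA is the core of the C/EBP-ATF response element (CARE) that ATF4 binds, and TGACNNNGC is the core of the antioxidant response element (ARE) that NRF2 binds. Both strands were searched in windows from 250 bases before to 50 bases after each start site. The table held windows for 7 of the 10 genes, 11 in all. CARE letters were found in 2 genes, Slc7a11 and Slc1a4, and in 3.97% of all 32851 windows. ARE letters were found in 4 genes, Slc6a9, Slc7a1, Slc7a6 and Slc38a2, and in 12.4% of all windows. Some genes have several windows, so counts of genes and shares of windows are unlike measures. The 2 windows of Slc7a6 overlap and hold the same match. No CARE match overlapped an ARE match in these windows. A match is a description of the letters only.

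Below are the 250 bases before the start site and the first 10 transcribed bases of 4 genes, shown because the first and second hold the CARE letters, the third has the highest mean level in MS, and the fourth did not pass the test. Capitals mark CARE letters in Slc7a11 and Slc1a4 and ARE letters in Slc38a2. All are on the minus strand and are written 5′ to 3′ along the gene.
Slc7a11, chr3:50443604-50443863: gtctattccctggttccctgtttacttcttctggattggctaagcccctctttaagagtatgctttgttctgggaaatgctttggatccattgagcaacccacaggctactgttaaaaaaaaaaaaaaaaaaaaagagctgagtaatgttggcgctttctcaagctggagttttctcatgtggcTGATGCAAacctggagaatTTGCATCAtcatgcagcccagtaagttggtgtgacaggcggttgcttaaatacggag
Slc1a4, chr11:20332704-20332963: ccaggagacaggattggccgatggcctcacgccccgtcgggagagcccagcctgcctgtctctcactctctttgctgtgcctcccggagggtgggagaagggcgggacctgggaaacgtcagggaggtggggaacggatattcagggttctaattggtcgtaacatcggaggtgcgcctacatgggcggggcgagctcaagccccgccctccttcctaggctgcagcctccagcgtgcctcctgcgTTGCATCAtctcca
Slc3a2, chr19:8713888-8714147: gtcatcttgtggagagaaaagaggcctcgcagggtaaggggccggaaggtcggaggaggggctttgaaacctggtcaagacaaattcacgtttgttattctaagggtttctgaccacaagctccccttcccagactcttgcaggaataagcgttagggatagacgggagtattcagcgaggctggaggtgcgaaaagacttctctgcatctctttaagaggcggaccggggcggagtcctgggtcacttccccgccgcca
Slc38a2, chr15:96699719-96699978: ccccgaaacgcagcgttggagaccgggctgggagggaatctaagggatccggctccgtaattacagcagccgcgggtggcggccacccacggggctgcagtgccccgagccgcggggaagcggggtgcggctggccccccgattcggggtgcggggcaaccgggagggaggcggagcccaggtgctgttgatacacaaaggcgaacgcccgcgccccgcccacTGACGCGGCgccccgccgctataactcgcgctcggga
In Slc7a11 the letters occur 2 times, on opposite strands, starting 66 and 47 bases before the start site. In Slc1a4 they start 4 bases before it and run across it. The Slc3a2 window holds neither motif, which says only that these letters are not in it. The Slc38a2 window holds 1 ARE match, 27 bases before the start site. It holds no CARE match, and sequence outside the windows was not searched for any gene.

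Slc3a2 encodes CD98hc (4F2hc), the heavy chain that pairs with several light chains of the Slc7 family and brings them to the cell surface. Slc3a2 (ENSMUSG00000010095, chromosome 19, 8684246 to 8700733, mm39) was at 103, 129 and 115 FPKM in MS 1, 2 and 3, against 42.0, 40.1 and 49.0 FPKM in Control 1, 2 and 3. Every MS library lay more than 2-fold above every Control library. The means were 116 ± 13.1 FPKM in MS and 43.7 ± 4.68 in Control (SD, n = 3 each), and the log2 fold change was 1.39 (SE 0.10, limma adjusted p = 5.98e-05). Between MS 1 and Control 3 the difference was 1.06 on the log2(FPKM + 1) scale.

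Slc7a5 encodes LAT1, the light chain that exchanges leucine and other large neutral amino acids, often against glutamine. Slc7a5 (chromosome 8, 122607889 to 122634433) was at 96.3, 119 and 108 FPKM in the MS libraries and at 41.8, 45.3 and 62.2 FPKM in the Control libraries. The groups did not overlap, but Control 3 stood well above the other 2 Control libraries. Slc7a5 averaged 108 ± 11.2 FPKM in MS and 49.8 ± 10.9 in Control (SD, n = 3 each), and the log2 fold change was 1.11 (SE 0.15, limma adjusted p = 0.000767). The difference between MS 1 and Control 3 was 0.62, and without these 2 libraries the log2 fold change was 1.36 (limma adjusted p = 7.95e-05). In that smaller comparison, the kidney transcript Kap was at 86.9 and 89.3 FPKM in MS 2 and MS 3, against 0.155 and 0.302 in Control 1 and Control 2.

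Slc7a11 encodes xCT, the light chain of system xc-, which imports cystine and exports glutamate. Slc7a11 (chromosome 3, 49846975 to 50398063) was at 9.10, 9.58 and 7.52 FPKM in MS, against 2.43, 2.58 and 3.54 FPKM in Control. All MS values were more than 2-fold above the highest Control value, again that of Control 3. The means of 8.73 ± 1.08 FPKM in MS and 2.85 ± 0.603 in Control (SD, n = 3 each) had a ratio of 3.07. The log2(FPKM + 1) scale gives smaller changes for low genes, and there the log2 fold change was 1.34 (SE 0.13, limma adjusted p = 0.000176), and MS 1 minus Control 3 was 1.15. The 3 other rows that lie within its long deposited span were at 0.0354 FPKM or less in every library.

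Slc7a6 encodes the third light chain, y+LAT2, which exports cationic amino acids such as arginine against neutral ones. Slc7a6 (chromosome 8, 106895489 to 106925338) was at 7.80, 7.82 and 7.14 FPKM in MS and at 7.22, 6.66 and 7.47 FPKM in Control, and the groups overlapped. Its log2 fold change was 0.08, with a 95% interval from -0.06 to 0.23 (limma adjusted p = 0.305). Judged by these libraries alone, the interval excludes a 2-fold difference. With values scaled to TPM it was 0.18 and passed (limma adjusted p = 0.0444). It did not pass with median-ratio scaling (0.03, limma adjusted p = 0.672) or with TPM scaling without mitochondrial genes (0.04, limma adjusted p = 0.679).

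Ratios between the chains were taken within each library. The 3 light chains together were at 1.10, 1.05 and 1.07 times the Slc3a2 level in MS, against 1.23, 1.36 and 1.49 times in Control. Slc7a5 made up most of the light chain sum in every library, so this ratio mainly follows Slc7a5, including its high value in Control 3. The groups did not overlap, and the means were 1.07 ± 0.0229 against 1.36 ± 0.134 in Control (SD, n = 3 each). For Slc7a11 alone, the ratio to Slc3a2 was 0.0880, 0.0740 and 0.0653 in MS and 0.0578, 0.0642 and 0.0722 in Control, and the groups overlapped. FPKM is scaled by transcript length, which allows 2 genes of a library to be set side by side. No p is given for ratios, since an exact two-sided permutation test of 3 against 3 cannot go below 0.10.

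**Figure D2:**
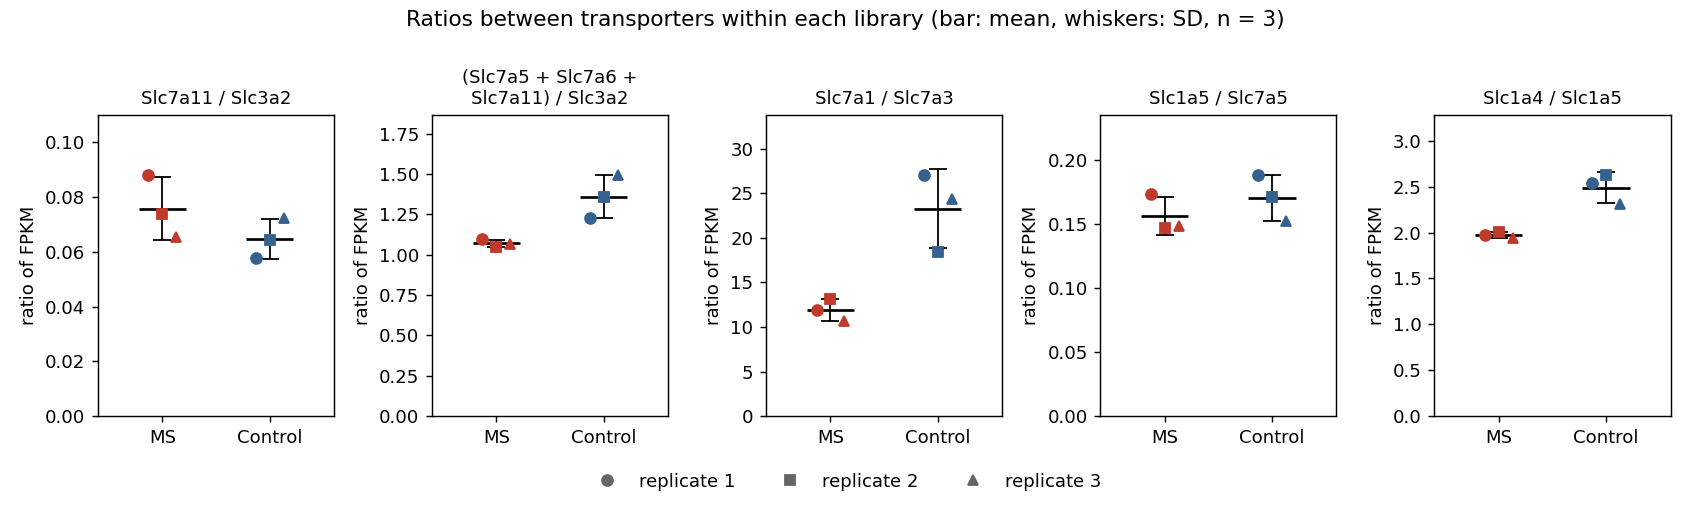
Ratio of FPKM between named transporters within each library (vertical axes, linear from 0), MS on the left in red and Control on the right in blue, with group means and SD (n = 3 each). The ratio of the 3 light chains to Slc3a2 sits between 1.05 and 1.10 in MS and between 1.23 and 1.49 in Control.

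Slc7a1 and Slc7a3 encode CAT1 and CAT3, which carry arginine, lysine and ornithine without a heavy chain. Slc7a1 (chromosome 5, 148264220 to 148336714) was at 16.2, 19.8 and 16.9 FPKM in MS and at 7.32, 7.14 and 9.18 FPKM in Control, with no overlap. Its log2 fold change was 1.07 (SE 0.11, limma adjusted p = 0.000221), and MS 1 minus Control 3 was 0.76. Slc7a3 (chromosome X, 100122816 to 100129011) was at 1.36, 1.51 and 1.58 FPKM in MS, against 0.271, 0.388 and 0.377 FPKM in Control. Those means, 1.49 ± 0.113 FPKM in MS and 0.345 ± 0.0648 in Control (SD, n = 3 each), had a ratio of 4.31, the highest of the 10 transporters. Its level was the lowest of the 10 in both groups, so the ratio rests on low values. In the fit without the filter on low values, over 29473 genes, Slc7a3 had a log2 fold change of 0.89 (SE 0.08, limma adjusted p = 0.00164). Slc7a1 transcripts were 11.9, 13.1 and 10.7 times as abundant as those of Slc7a3 in MS, against 27.0, 18.4 and 24.3 times in Control.

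Slc1a5 and Slc1a4 encode ASCT2 and ASCT1, exchangers of small neutral amino acids that depend on sodium; ASCT2 also carries glutamine. Slc1a5 (chromosome 7, 16515265 to 16532199) was at 16.7, 17.5 and 16.0 FPKM in MS and at 7.88, 7.78 and 9.46 FPKM in Control. The MS libraries were close together and clear of the Control libraries. Its log2 fold change was 0.92 (SE 0.08, limma adjusted p = 0.000109). Slc1a4 (chromosome 11, 20252180 to 20282713) was at 33.0, 34.9 and 31.1 FPKM in MS, against 20.0, 20.4 and 21.8 FPKM in Control, and its log2 fold change was 0.64 (SE 0.06, limma adjusted p = 0.000156). Of the 7 higher transporters it had the smallest fold change. Slc1a4 was 1.97 ± 0.0317 times as abundant as Slc1a5 in MS and 2.49 ± 0.165 times in Control (SD, n = 3 each), with no overlap. MS 1 minus Control 3 was 0.76 for Slc1a5 and 0.57 for Slc1a4. The ratio of Slc1a5, a glutamine importer, to Slc7a5, which exports glutamine for leucine, was 0.174, 0.147 and 0.148 in MS and 0.188, 0.172 and 0.152 in Control, and the groups overlapped.

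Slc6a9, which encodes the glycine transporter GlyT1, had the largest fold change among the 9 tested transporters. Slc6a9 (chromosome 4, 117691703 to 117732395) was at 25.2, 31.8 and 27.1 FPKM in MS, against 6.81, 6.36 and 6.98 FPKM in Control. The means were 28.0 ± 3.35 FPKM in MS and 6.71 ± 0.32 FPKM in Control (SD, n = 3 each), a ratio of 4.18. Its log2 fold change was 1.91 (SE 0.09, limma adjusted p = 1.6e-05), and only 29 of the 12028 tested genes had a larger one. MS 1 minus Control 3 was 1.72. Its row overlaps that of B4galt2 on the other strand, which was lower in MS (8.31 to 8.71 FPKM, against 10.7 to 13.2 in Control), and that of Ccdc24, which was at 0.849 FPKM or less. The sources used here do not say whether counting used the strand.

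Slc38a2 encodes SNAT2, which carries alanine, glutamine and other small neutral amino acids in with sodium; its transcripts are known to be induced by amino acid starvation. Slc38a2 (chromosome 15, 96585273 to 96597611) was at 49.3, 52.3 and 47.8 FPKM in MS, against 50.6, 45.8 and 45.7 FPKM in Control. The groups overlapped, and Control 1 lay above 2 of the 3 MS libraries. The log2 fold change was 0.07, with a 95% interval from -0.07 to 0.21 (limma adjusted p = 0.335), which excludes a 2-fold difference as judged by these libraries. With values scaled to TPM the log2 fold change was 0.19 and passed (limma adjusted p = 0.0368). It did not pass with median-ratio scaling (0.02, limma adjusted p = 0.804) or with TPM scaling without mitochondrial genes (0.02, limma adjusted p = 0.79).

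**Figure D3:**
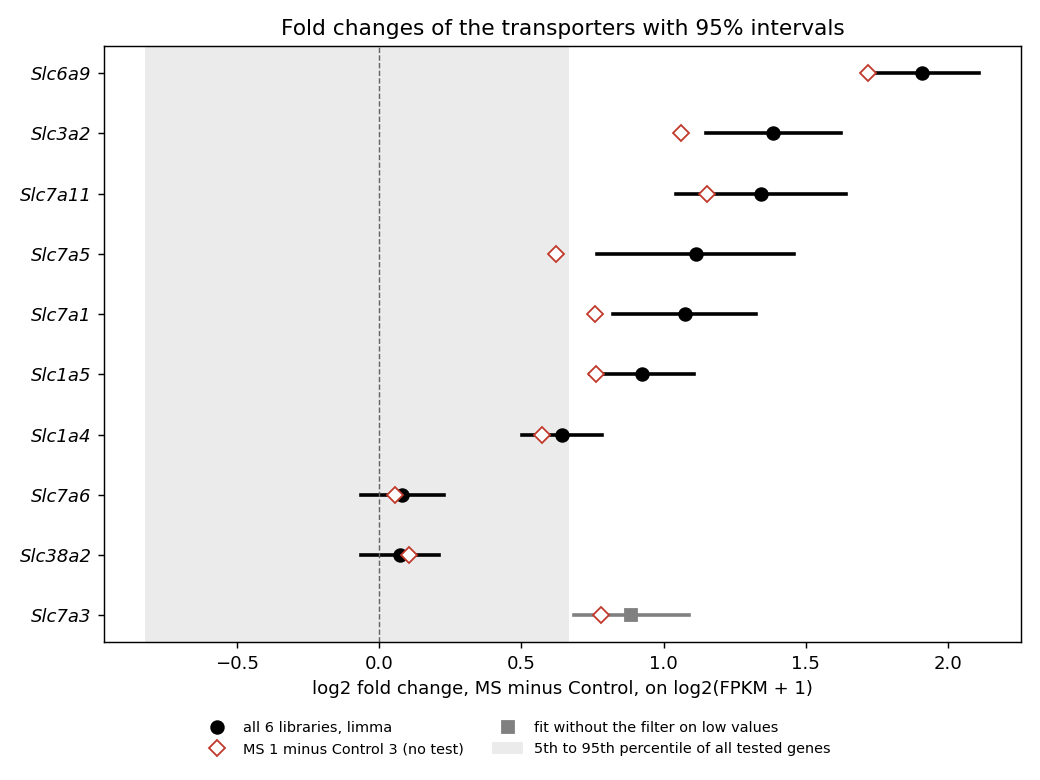
Log2 fold change, MS minus Control, on log2(FPKM + 1) (horizontal axis) of each transporter, with limma's 95% interval; open diamonds give MS 1 minus Control 3, and grey shading spans the 5th to 95th percentile of all 12028 tested genes, -0.82 to 0.66. Slc7a3 is shown from the fit without the filter on low values; Slc7a6 and Slc38a2 lie near 0, Slc1a4 (0.64) lies just inside the shading and the other 6 tested transporters lie above it.

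The transporters were also ordered by level in each group. In MS the order of mean FPKM was Slc3a2, Slc7a5, Slc38a2, Slc1a4, Slc6a9, Slc7a1, Slc1a5, Slc7a11, Slc7a6 and Slc7a3. Neighbours whose ranges overlapped in MS were Slc3a2 and Slc7a5, Slc1a4 and Slc6a9, Slc7a1 and Slc1a5, and Slc7a11 and Slc7a6. In Control the order was Slc7a5, Slc38a2, Slc3a2, Slc1a4, Slc1a5, Slc7a1, Slc7a6, Slc6a9, Slc7a11 and Slc7a3. There the first 3 overlapped, each with the next, and so did Slc1a5, Slc7a1, Slc7a6 and Slc6a9. Slc6a9 stood higher in the MS order than in the Control order. The 10 transcripts summed to 387 ± 33.2 FPKM in MS and 195 ± 18.2 in Control (SD, n = 3 each). Slc3a2 with the 3 light chains among the 10 summed to 240 ± 24.5 in MS and 104 ± 16.2 in Control (SD, n = 3 each).

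Genes outside the group with the most similar profiles were sought for 3 of the transporters. Likeness was the Euclidean distance between centred log2(FPKM + 1) values over the 6 libraries, so it takes in the size of the change, and it is a description. Nearest to Slc7a5 were Phgdh, the first enzyme of serine synthesis (distance 0.06), Hspa9, the mitochondrial HSP70 (0.17), and Tars, the cytosolic threonyl-tRNA synthetase (0.19). Phgdh had a log2 fold change of 1.13 and shared with Slc7a5 a Control 3 value above the other Control libraries. Nearest to Slc7a11 were Nars, the asparaginyl-tRNA synthetase (0.19), the transcription factor Atf5 (0.21) and Vps37b, a subunit of the ESCRT-I sorting complex (0.22). Nearest to Slc3a2 were Abcc4, an efflux pump (0.11), Vps37b (0.15) and Atf5 (0.16). The libraries form 2 groups, so any gene with a like fold change will be near.

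For other transporters of the plasma membrane, calls were made in both directions. Of 29 listed, 28 were in the table and 6 reached a mean of 1 FPKM, of which 2 rose and 3 fell, with a median log2 fold change of -0.33. Over all tested genes 30.6% were called higher and 23.2% lower, so 2 of 6 higher is near the share of all genes. Slc7a2, which encodes the cationic amino acid transporter CAT2, was at 5.50, 4.24 and 4.56 FPKM in MS, against 14.8, 12.4 and 8.69 FPKM in Control. It moved to the side opposite to Slc7a1, with a log2 fold change of -1.15 (SE 0.18, limma adjusted p = 0.00146), while MS 1 minus Control 3 was -0.58. Outside the naming rule, 4 more called genes are named after their values were seen. The glutamine transporter Slc38a1 (0.65) and Slc6a17 (0.32) rose on the log2 scale. The glutamate transporter Slc1a3 (-0.79) and the leucine transporter Slc43a2 (-0.56) fell. Whether Slc6a17 acts at the plasma membrane was not checked, so its place in this list is open. The taurine transporter Slc6a6 was not called (-0.10, limma adjusted p = 0.167). A fit with 3 library sets as a term takes its estimate from MS 1 and Control 3, 1 library each, and its spread from the other 4 libraries, so it assumes that these 2 vary like the rest. Of the 5 calls, that of Slc7a2 alone passed in that fit. There, and under the same assumption, 7 of the 9 tested transporters of the main group were called higher, against 15.3% of all tested genes, and without Control 3 and MS 1 it was also 7, against 27.3%.

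Lysosomal amino acid transporters were tested for 6 of 10 listed genes, of which 3 rose and 1 fell (median log2 fold change 0.21), beside 30.6% higher and 23.2% lower of all tested genes. Slc38a7, a glutamine and asparagine transporter of the lysosome membrane, was at 41.5, 47.6 and 45.5 FPKM in MS, against 17.6, 17.5 and 18.1 FPKM in Control. Its log2 fold change was 1.29 (SE 0.06, limma adjusted p = 1.6e-05), beside 1.34 for Slc7a11. Among 22 tested genes of amino acid sensing by mTORC1, 11 rose and 4 fell (median 0.19). With 3 library sets as a term 9 were called higher, against 15.3% of all tested genes, and 0 lower. Sesn2, a leucine sensor that restrains mTORC1, was the only one of them called at least 2-fold higher on the log2(FPKM + 1) scale. It is also counted among the ATF4 pathway genes below. Sesn1 (-0.63) and Sesn3 (-0.59), named after their values were seen, were called lower. Sesn2 was at 38.2, 47.3 and 45.2 FPKM in MS, against 12.7, 12.5 and 16.6 FPKM in Control.

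**Figure D4:**
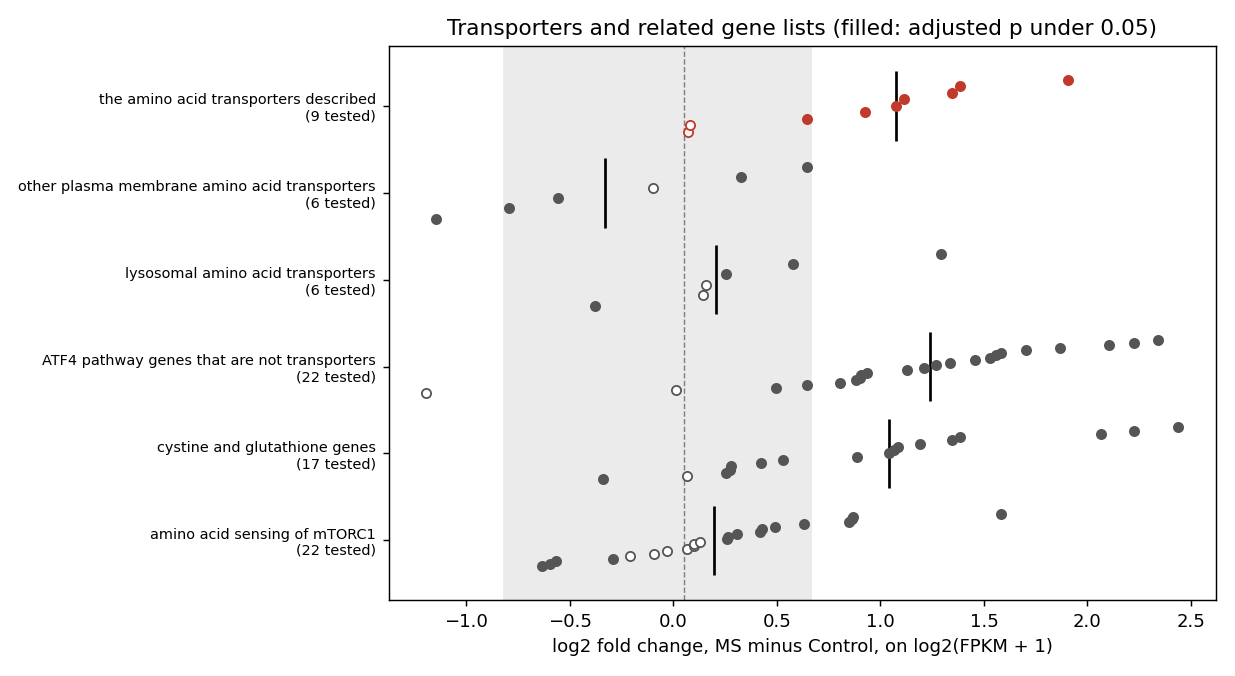
Log2 fold change, MS minus Control, on log2(FPKM + 1) (horizontal axis) of each tested gene of the transporter group (red) and of 5 related lists (grey); filled points passed the test, vertical bars are list medians and shading spans the 5th to 95th percentile of all tested genes. The transporter median is 1.07, and that of other plasma membrane transporters is -0.33.

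Genes that ATF4 or NRF2 is known to act on were mostly higher in MS too, a pattern already known from earlier results of these data and no separate support. Of 22 tested genes of the ATF4 pathway that are not transporters, 20 rose and 0 fell in limma, also at an unadjusted p under 0.05. Over all tested genes 30.6% were called higher and 23.2% lower. The median log2 fold change of the 22 genes was 1.24. Without Control 3, Cebpb, a partner of ATF4 on its response element, was called lower (log2 fold change -2.33, limma adjusted p = 0.000435). Atf4 itself was at 200 to 232 FPKM in MS and 105 to 129 in Control, with a log2 fold change of 0.90 (limma adjusted p = 0.000228). The largest increases were in Trib3 (2.34), a pseudokinase, Chac1 (2.23), which degrades glutathione, Aldh1l2 (1.87), an enzyme of mitochondrial folate metabolism, and Psph (1.70), of serine synthesis, and in Ddit3, which encodes CHOP and was at 40.1, 49.9 and 43.7 FPKM in MS, against 9.71, 8.69 and 10.4 FPKM in Control. Around cystine and glutathione, 15 of 17 tested genes rose and 1 fell, beside the same shares of all tested genes. Their median was 1.04. Slc3a2 and Slc7a11 are among the 15, and so is Chac1, which is in both lists. The gene that fell, Chac2, another enzyme that degrades glutathione, was named after its values were seen; it had a log2 fold change of -0.34 (limma adjusted p = 0.0462) and lost its call without Control 1, Control 3, MS 2 or MS 3 (limma adjusted p from 0.0906 to 0.144). Nfe2l2, which encodes NRF2, was at 47.3 to 50.4 FPKM in MS and 40.7 to 41.1 in Control (log2 fold change 0.25, limma adjusted p = 0.00223). Hmox1, heme oxygenase, rose by 2.44 on the log2 scale and Cth, which makes cysteine from cystathionine, by 2.06. Cth was at 28.4, 41.6 and 30.6 FPKM in MS, against 6.57, 6.53 and 8.51 FPKM in Control. Gclc and Gclm, the subunits of the enzyme that starts glutathione synthesis, were named after their values were seen and rose by 0.27 and 0.53, less than Slc7a11, a difference that was not tested.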

How the data were processed

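Per the labels' protocols, poly(A) RNA of C2C12 cells was sequenced in 3 MS and 3 Control libraries. Per the file headers, the values the authors deposited are FPKM. In the submitters' processing notes the build is mm39, and StringTie 2.1.6, HISAT2 2.2.1, cutadapt 1.9, edgeR and DESeq2 are listed without their roles. The sources used here do not say how reads that map to several places were handled. Because FPKM are not counts, absolute depth is unknown and count models were not used. Fixed ratios between low values put the libraries' normalizing totals at 0.961 to 1.01 times that of Control 1. Only ratios near 1 were searched, so a larger difference between totals could not have been found. Outside Control 1, the estimate rests on 59 to 87 genes per library, of 401 to 447 in the range searched. Summed FPKM ranged from 298991 to 304570 in MS and from 323607 to 329968 in Control.

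Symbols came from a GENCODE M21 name table by gene ID (31077 of 32815 rows). The 12028 genes whose mean reached 1 FPKM were tested on log2(FPKM + 1) with limma 3.58.1 in R 4.3.3 (lmFit, eBayes with trend), MS against Control; p-values are two-sided and Benjamini-Hochberg adjusted over these genes. The fit was tested on simulated data. Promoter windows are RefSeq's, on GRCm38.p6, and share no coordinates with the mm39 table. The naming rule took all 10 transporters, Atf4 and Nfe2l2, and from each other list up to 5 called genes with a fold change of at least 2. The members and lists were chosen with earlier results of these data known. The main fit did not pair samples by replicate number. Alternatives were the pseudocount, the filter, the scaling, the variance model, library sets, a replicate block and each library left out.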

Additional observations from a re-analysis of the deposited data

How the results depend on the processing

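Over 19 alternatives, 1 of them (3 library sets as a term) chosen after seeing the data, 7 transporters were called higher and 0 lower, except that 8 were called higher without the filter on low values, which adds Slc7a3, and 9 with TPM scaling. Of 171 fold changes of single transporters, 169 kept their direction and their side of the threshold, and the other 2 are Slc7a6 and Slc38a2 with TPM scaling. Leaving out 1 library at a time kept the 7 calls, with log2 fold changes of Slc7a5 from 1.00 to 1.28. Over all tested genes 6470 were called, and 3166 with 3 library sets as a term, a fit with fewer residual degrees of freedom whose estimate is MS 1 minus Control 3 and whose spread comes from the other 4 libraries. TPM scaling moved the share of higher genes among those called to 71.1%, against 56.9%, and shifted the median log2 fold change by 0.0985; the share was 49.3% with median-ratio scaling and 50.1% with TPM scaling without mitochondrial genes. Deviations from the group mean correlated at -0.33, 0.25 and -0.37 between libraries of the same number. Those of MS 1 and Control 3, which share salivary transcripts, correlated at 0.46. These values therefore cannot decide whether the replicate numbers pair cultures. With the replicate block 7 transporters and 5890 genes were called. Among other plasma membrane transporters 2 rose and 3 fell, against 0 and 1 with 3 library sets, and 1 fell at a mean of at least 5 FPKM. Lysosomal transporters had 3 higher and 1 lower, against 5 higher with TPM scaling and 0 lower with 3 library sets or a mean of at least 5 FPKM. For mTORC1 sensing, 4 lower became 2 at a mean of at least 5 FPKM and 0 with 3 library sets. The 1 lower gene around glutathione, Chac2, lost its call under 11 alternatives, and ATF4 pathway genes had 1 lower under 3. The causes were not tested. The 5 log2 ratio differences kept their direction when any 1 library was left out and moved by less than the pooled SD within groups. Even so, Slc7a11 to Slc3a2 was at 0.11 without MS 1 and 0.14 without Control 1, against 0.22, and Slc1a5 to Slc7a5 at -0.08 without MS 2, -0.05 without Control 1 and -0.20 without MS 1 or Control 3, against -0.12. Depth in fragments is unknown, so no counting error can be given for low values such as those of Slc7a3.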

Other observations

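Among low transcripts of kidney epithelium, 3 transporters and Ggt1, picked after their values were seen, were highest in the 4 libraries with abundant Kap transcripts. Slc7a13, an aspartate and glutamate transporter of the kidney tubule, was at 1.11, 0.631 and 0.829 FPKM in the MS libraries, against 0.0791 and 0.0269 in Control 1 and Control 2 and 0.974 in Control 3. Slc6a18, a glycine and alanine transporter of the same epithelium, was at 0.331, 0.544 and 0.613 FPKM in MS, listed at 0 in Control 1 and Control 2, and at 0.338 in Control 3. Slc3a1, the heavy chain of the kidney cystine transporter, was at 0.625, 0.403 and 0.336 FPKM in MS, and at 0, 0.0412 and 0.332 in Control. Ggt1, which breaks down glutathione outside the cell and is abundant in kidney, was at 1.30, 1.75 and 1.26 FPKM in MS, against 0.0147, 0 and 1.18 in Control. At still lower levels, Slc1a1 and Slc6a20b went the same way. Slc1a1 was at 0.0962, 0.119 and 0.107 FPKM in MS and 0, 0 and 0.115 in Control. Slc6a20b was at 0.0656, 0.0633 and 0.112 FPKM in MS and 0, 0.00961 and 0.0738 in Control. The other transporters of that epithelium given next did not share the pattern. They too were picked after their values were seen, so how many go each way reflects the choice. Slc6a20a was at 0.077, 0.122 and 0.035 FPKM in MS and 0.261, 0.0633 and 0.0754 in Control. Slc7a9, the light chain that pairs with Slc3a1, was at 0.0670, 0 and 0 FPKM in MS and 0, 0 and 0.0254 in Control. Slc6a19, a neutral amino acid transporter, was at 0.0353 to 0.123 FPKM in MS and 0.0333 to 0.0785 in Control, and Slc7a7, a cationic one, at 0.189 to 0.269 in MS and 0.338 to 0.422 in Control. All of these genes averaged under 1 FPKM and were not tested.

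Cebpb, a partner of ATF4 on the CARE element, varied widely among the Control libraries. It was at 8.79, 5.62 and 4.04 FPKM in MS, against 31.5 and 35.8 in Control 1 and Control 2 and 2.27 in Control 3. Its log2 fold change was -1.19 (limma adjusted p = 0.286), while MS 1 minus Control 3, 1 library each and without a test, was 1.58.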
